A study of Homo sapiens with 26 samples.

Results

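The microRNA machinery examined here comprised 10 genes, chosen by symbol. They were the Argonautes AGO1, AGO2, AGO3 and AGO4, and the nuclear nuclease DROSHA with its partner DGCR8. The others were the cytoplasmic enzyme DICER1 and the Argonaute partners TNRC6A, TNRC6B and TNRC6C. All 10 were listed in each of the 3 deposited expression tables, which together hold 12239 genes, and all 10 passed the filter on low values. Poly(A) RNA had been sequenced from 786-O cells, a kidney cancer line (clear cell type) that lacks functional VHL, after knockdown of genes of nuclear speckle proteins. The knocked-down groups were SART1 siRNA 6 and siRNA 4, DDX39A siRNA 4 and siRNA 1, SARNP siRNA 9 and siRNA 3, FIBP siRNA 7 and siRNA 6, and TMEM259 siRNA 6 and siRNA 5, with 2 libraries each. Each of the 3 tables (SART1; DDX39A with SARNP; FIBP with TMEM259) had 2 libraries of its own from cells given a non-targeting siRNA, the controls. All cells received an siRNA with the reagent DharmaFECT 1 and were harvested 48 h later, and all come from 1 cell line. Whether replicate libraries stem from different transfections is not stated, so the p-values measure the spread between libraries, which may be technical. For each gene limma, the test used here, took most of that spread from genes of similar level. The prior degrees of freedom were 20.5 to 38.4, against 3 to 5 residual ones.

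MicroRNA primary transcripts are cut in the nucleus by the Microprocessor, in which DROSHA is the nuclease and DGCR8 the RNA-binding partner. The hairpins are exported and cut again by DICER1, and 1 strand is loaded into an Argonaute. TNRC6 proteins, also called GW182 proteins, bind the loaded Argonaute and bring in the deadenylases that silence the target mRNA. AGO2 is the Argonaute that cleaves fully matched targets, and synthetic siRNAs such as those used here, in knockdown and control cells alike, act through the same Argonaute proteins.

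DGCR8 and DICER1 carry microRNAs in their own transcripts, and these are shown because the measured mRNA and the microRNA share a precursor. The DGCR8 transcript holds hairpins that the Microprocessor itself can cut, which links DGCR8 mRNA to Microprocessor activity. In the RefSeq annotation of GRCh38.p14, miR-3618 lies in an untranslated exon of DGCR8 and miR-1306 in a coding exon, both on chromosome 22, and miR-3173 lies in an intron of DICER1 on chromosome 14. Mature sequences are from RefSeq, with the seed (bases 2 to 8) in capitals.
hsa-miR-3618: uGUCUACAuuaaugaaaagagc
hsa-miR-1306-5p: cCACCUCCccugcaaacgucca
hsa-miR-1306-3p: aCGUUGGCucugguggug
hsa-miR-3173-5p: uGCCCUGCcuguuuucuccuuu
hsa-miR-3173-3p: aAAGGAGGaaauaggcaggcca
These 5 mature strands share no seed with each other. MicroRNAs themselves were not measured in these libraries.

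Libraries held between 8966609 and 26128173 reads assigned to genes, with the SART1 table the deepest. The knocked-down mRNAs averaged 26.8% and 33.3% of the control mean for SART1 (siRNA 6 and siRNA 4), 16.5% and 14.0% for DDX39A (siRNA 4 and siRNA 1), 8.48% and 13.5% for SARNP (siRNA 9 and siRNA 3), 17.1% and 11.0% for FIBP (siRNA 7 and siRNA 6) and 48.3% and 30.3% for TMEM259 (siRNA 6 and siRNA 5). All 8 markers of a renal carcinoma line, PAX8 and EPAS1 among them, were listed in every table. None of 6 markers of other cells, such as PTPRC and ALB, was listed.

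In control cells DROSHA and DGCR8 were the most abundant members per length of exon, followed by TNRC6A and DICER1, and the Argonautes were less abundant. Levels here are normalized signal per 1000 bases of exon (GENCODE v29 lengths, which may differ from the annotation counted), and each table has its own scale. In the SART1 table DROSHA stood at 744 ± 2.68, DGCR8 at 414 ± 6.71, TNRC6A at 281 ± 4.27 and DICER1 at 122 ± 8.60 (SD, n = 2 control libraries). AGO2 followed at 56.2 ± 0.175 and AGO1 at 49.6 ± 2.90, then AGO4 at 32.5 ± 3.84, TNRC6B at 23.2 ± 0.441, AGO3 at 12.5 ± 1.22 and TNRC6C at 10.1 ± 0.477. The order of the first 4 members, and of AGO3 above TNRC6C at the bottom, was the same in all 3 tables. AGO1 and AGO2 changed places between tables, as did AGO4 and TNRC6B. In the DDX39A and SARNP table the control libraries of AGO1 (43.9 and 47.0) and AGO2 (44.1 and 40.1) overlapped, as did those of AGO4 (24.0 and 19.96) and TNRC6B (24.3 and 21.9), so both orders there were within the spread.

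A change was called when limma's Benjamini-Hochberg adjusted p over all genes of the table was below 0.05. Against its own controls, SART1 siRNA 6 had 9 of 10 members called, where 62.9% of all tested genes were called, and SART1 siRNA 4 had 6, where 57.7% were. DDX39A siRNA 4 had 5 called (all genes 49.0%) and DDX39A siRNA 1 had 4 (all genes 33.2%). SARNP siRNA 9 had 8 called (all genes 58.4%) and SARNP siRNA 3 had 5 (all genes 41.3%). FIBP siRNA 7 had 3 called (all genes 34.1%) and FIBP siRNA 6 had 1 (all genes 22.6%). TMEM259 siRNA 6 had 4 called (all genes 19.4%). TMEM259 siRNA 5 had 0 called by limma (all genes 22.8%), with 0 members at an unadjusted p below 0.05 and 0 called by edgeR and by DESeq2. In all, 45 of 100 member changes were called, 25 higher and 20 lower, beside 40.1% of the tests over all genes, so the machinery as a group was called about as often as other genes. Most of the changes were small: 7 of the 45 passed 1.5-fold, and 1, TNRC6C with SARNP siRNA 9, passed 2-fold. Several alternatives lowered the SART1 siRNA 6 count. It was 6 with DESeq2, where 5909 of all genes were called, beside 7442 by limma. Leaving out single libraries lowered it as well. The SART1 siRNA 6 count was 5 after quantile normalization, and the TMEM259 siRNA 6 count was 2 with DESeq2 and 0 to 2 with 1 library left out (0 without siRNA 6 replicate 1, 2 without siRNA 6 replicate 2, and 1 without control replicate 1 or control replicate 2). The DDX39A siRNA 1 count was 2 with DESeq2, after quantile normalization and without siRNA 1 replicate 2, control replicate 1 or control replicate 2, and 1 without siRNA 1 replicate 1. The SARNP siRNA 3 count was 3 without siRNA 3 replicate 1 or control replicate 2, the SARNP siRNA 9 count was 5 with DESeq2, and the FIBP siRNA 6 count was 2 without siRNA 6 replicate 2.

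**Figure D1:**
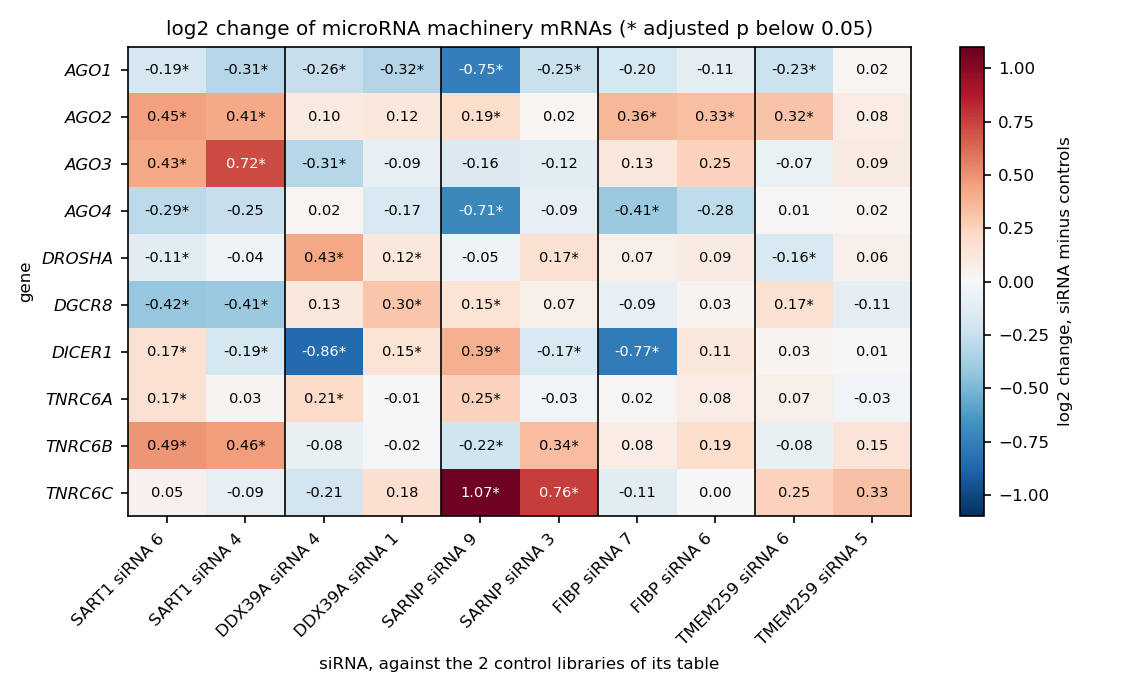
Log2 change of each of the 10 members (rows) with each siRNA (columns) against the 2 control libraries of its table, with an asterisk where limma's adjusted p was below 0.05. The AGO1 row holds 7 asterisks, all on lower values, and the AGO2 row 6, all on higher values, while the DICER1 row runs between -0.86 and 0.39.

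Agreement between the 2 siRNAs of a target was read from the members called with both in 1 direction. With SART1, AGO2, AGO3 and TNRC6B were higher with both siRNAs (3 of 10, beside 22.9% of all genes), and AGO1 and DGCR8 were lower with both (2 of 10, beside 20.0%). With DDX39A, DROSHA was higher with both (1 of 10, beside 8.67%) and AGO1 lower with both (1 of 10, beside 6.37%). With SARNP, TNRC6C was higher with both (1 of 10, beside 7.17%) and AGO1 lower with both (1 of 10, beside 7.15%). With FIBP, AGO2 was higher with both (1 of 10, beside 4.68%), and no member was lower with both (all genes 4.39%). With TMEM259, no member was called with both siRNAs in either direction (all genes 2.56% higher and 2.41% lower). When single libraries were left out, AGO1 lost the call with both DDX39A siRNAs, with SART1 siRNA 6 and with SARNP siRNA 3, and DROSHA lost it with DDX39A siRNA 1, as given with each gene below.

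AGO2 was called higher with 6 of the 10 siRNAs and lower with none. All siRNAs in a table share the same 2 control libraries, so calls across siRNAs are not independent. With SART1 siRNA 6 the normalized signal of AGO2 was 1130.0 and 1116, and with SART1 siRNA 4 it was 1101 and 1081, against 817 and 821 in the controls. All 4 knockdown libraries lay above both control libraries, and the 2 libraries of each group were close together. The log2 changes were 0.45 ± 0.05 (SE, limma adjusted p = 8.3e-08) and 0.41 ± 0.05 (limma adjusted p = 4.6e-07). With FIBP siRNA 7 AGO2 stood at 606 and 601 and with FIBP siRNA 6 at 583 and 598, against 488 and 450.0 in the controls. Again no FIBP library reached down to the controls. Fitted log2 changes were 0.36 ± 0.07 (limma adjusted p = 7e-05) and 0.33 ± 0.07 (limma adjusted p = 0.0004). TMEM259 siRNA 6 gave 615 and 556 against the same 488 and 450.0, a log2 change of 0.32 ± 0.07 (limma adjusted p = 0.001), and SARNP siRNA 9 gave 707 and 694 against 643 and 584 (0.19 ± 0.07, limma adjusted p = 0.015). The TMEM259 siRNA 6 call was lost without its replicate 1 (0.24). The SARNP siRNA 9 call was lost without siRNA 9 replicate 1 (0.18), without control replicate 2 (0.12) and with DESeq2 (0.19).

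AGO1, which like AGO3 and AGO4 silences targets without relying on cleavage, moved the other way: it was called lower with 7 siRNAs and higher with none. These calls share controls too, the DDX39A and SARNP siRNAs having the same 2 control libraries. How many of all genes were called this often in 1 direction was not counted. With SARNP siRNA 9 AGO1 stood at 382 and 360.1, and with SARNP siRNA 3 at 518 and 537, against 606 and 648 in the controls. Both SARNP groups lay below the controls, and siRNA 9 lay below siRNA 3. Fitted log2 changes were -0.75 ± 0.08 (limma adjusted p = 9.9e-11) and -0.25 ± 0.08 (limma adjusted p = 0.0085). SART1 siRNA 4 gave 578 and 524 against 713 and 656 in the controls, a log2 change of -0.31 ± 0.07 (limma adjusted p = 0.00048), and SART1 siRNA 6 gave 588 and 613 (-0.19 ± 0.07, limma adjusted p = 0.021). The DDX39A siRNAs gave log2 changes of -0.26 (siRNA 4) and -0.32 (siRNA 1), and TMEM259 siRNA 6 gave -0.23, while with FIBP siRNA 7 and siRNA 6 AGO1 stood at 87.3% and 92.7% of the controls without a call. The calls with SARNP siRNA 9 and SART1 siRNA 4 held in every alternative run. The other 5 did not: SARNP siRNA 3 lost its call without siRNA 3 replicate 1 (-0.22) or control replicate 2 (-0.20), DDX39A siRNA 4 without siRNA 4 replicate 1 (-0.22) or control replicate 2 (-0.21), and DDX39A siRNA 1 without siRNA 1 replicate 1 (-0.21). SART1 siRNA 6 lost it without siRNA 6 replicate 1 (-0.16), without control replicate 1 (-0.13), after quantile normalization (-0.15) and with DESeq2 (-0.19). TMEM259 siRNA 6 lost it when siRNA 6 replicate 1 (-0.19), siRNA 6 replicate 2 (-0.28), control replicate 1 (-0.18) or control replicate 2 (-0.29) was left out, after quantile normalization (-0.22) and with DESeq2 (-0.23).

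AGO3 rose with both SART1 siRNAs. It stood at 341 and 349 with siRNA 6 and at 417 and 428 with siRNA 4, against 239.6 and 275 in the controls. The 3 groups did not overlap, with siRNA 4 the highest. The log2 changes were 0.43 ± 0.09 (limma adjusted p = 0.00017) for siRNA 6 and 0.72 ± 0.09 (limma adjusted p = 1.9e-07) for siRNA 4. With DDX39A siRNA 4 AGO3 was lower, at 164 and 153 against 210.1 and 185 (-0.31 ± 0.11, limma adjusted p = 0.019), a call lost without siRNA 4 replicate 2 (-0.26), without control replicate 1 (-0.22) and with DESeq2 (-0.32). With FIBP siRNA 6 AGO3 stood at 222 and 178 against 162 and 171 and was not called (0.25), but it was called without siRNA 6 replicate 2 (0.41). An antisense transcript overlaps AGO3, and since the strand counted is not given in the sources used here, reads of the pair cannot be told apart. The same limit holds for AGO1, AGO2, DROSHA, TNRC6A and TNRC6B, which other annotated genes overlap on the opposite strand.

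AGO4 was the lowest-count Argonaute and was lower with 3 siRNAs. With SARNP siRNA 9 it stood at 104 and 86.3, against 171 and 142 in the controls. The groups did not overlap, and the log2 change of -0.71 ± 0.14 (limma adjusted p = 3.6e-05) was close to that of AGO1 in the same cells. FIBP siRNA 7 gave 116 and 93.4 against 152 and 127 (-0.41 ± 0.14, limma adjusted p = 0.017), and SART1 siRNA 6 gave 171 and 208 against 212 and 251 (-0.29 ± 0.12, limma adjusted p = 0.034). The FIBP siRNA 7 call was lost without siRNA 7 replicate 2 (-0.26), without control replicate 1 (-0.28) and with DESeq2 (-0.42). The SART1 siRNA 6 call was lost without siRNA 6 replicate 1 (-0.14), without control replicate 2 (-0.17), after quantile normalization (-0.14) and with DESeq2 (-0.29). With SART1 siRNA 4 the value of -0.25 was not called, but it was with edgeR (-0.26), with the replicate block (-0.25) and without control replicate 1 (-0.37).

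**Figure D2:**
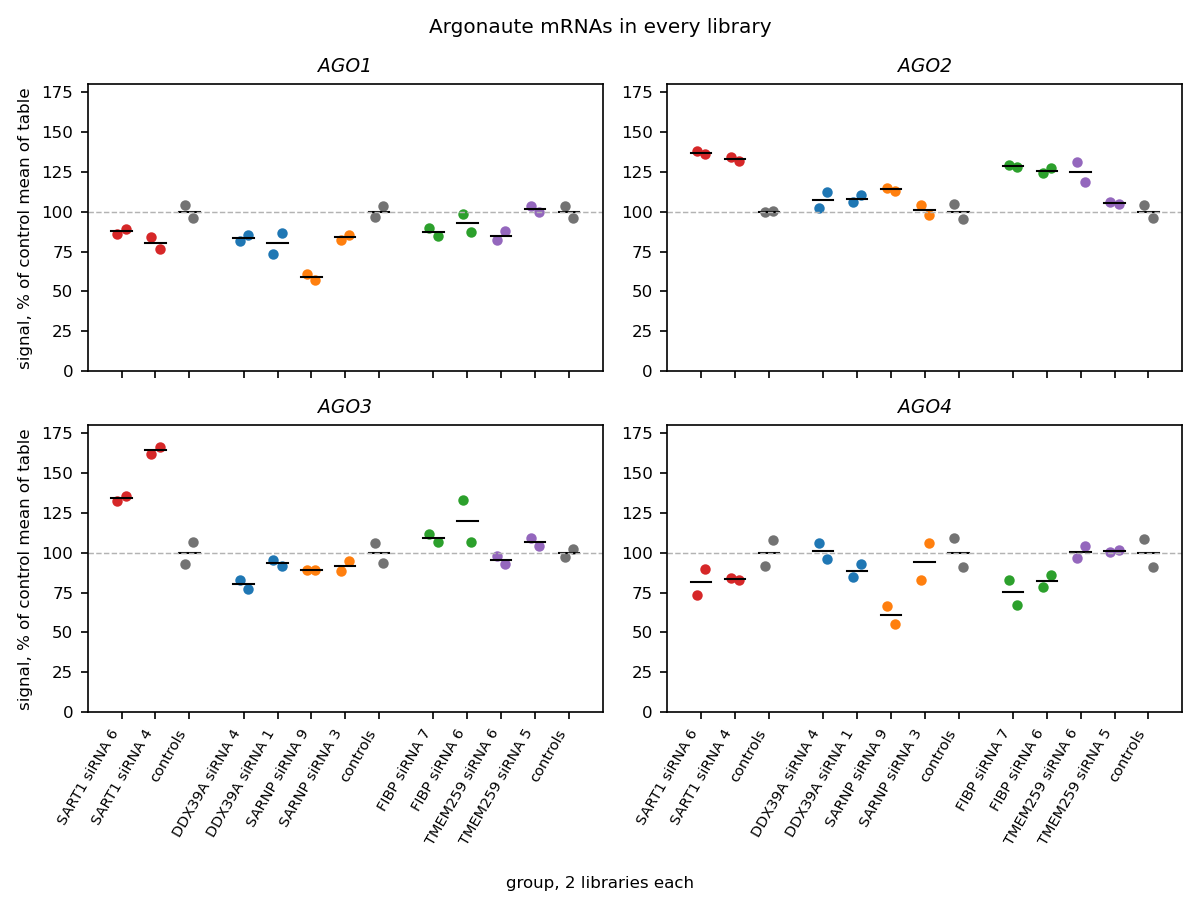
Normalized signal of the 4 Argonaute mRNAs in every library, as a percentage of the control mean of its table (dots, single libraries; bars, group means; gaps separate the 3 tables, controls rightmost in each). AGO2 sits at 133% and 137% of the controls with the SART1 siRNAs, AGO3 at 134% and 164%, and AGO1 reaches its lowest point, 59.2%, with SARNP siRNA 9.

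These opposite movements shifted the make-up of Argonaute mRNA. Of the summed Argonaute signal per length of exon, AGO2 made up 45.8% to 48.2% in SART1 siRNA 6 libraries and 45.7% to 46.4% in SART1 siRNA 4 libraries, against 36.9% to 37.6% in their controls. AGO1 made up 26.5% in both SART1 siRNA 6 libraries and 23.7% to 25.4% in the siRNA 4 libraries, against 31.2% to 34.6% in the controls. With SARNP siRNA 9 the AGO2 share was 48.8% to 50.5%, against 34.5% to 36.1% in the controls, and with FIBP siRNA 7 it was 44.4% to 46.8%, against 35.8% to 36.0%. In these comparisons no knockdown library overlapped the controls in its AGO2 share. The shares come from the same values as the changes above and were not tested. AGO4, AGO1 and AGO3 lie one after another on 1 strand of chromosome 1 in GENCODE v29, and AGO2 lies elsewhere. These neighbours did not always move together: with both SART1 siRNAs AGO3 rose while AGO1 fell.

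DROSHA changed most with DDX39A siRNA 4. It stood at 3082 and 2991 there and at 2440 and 2465 with DDX39A siRNA 1, against 2242 and 2275 in the controls. The 3 groups did not overlap. This gave log2 changes of 0.43 ± 0.04 (limma adjusted p = 4.1e-10) and 0.12 ± 0.04 (limma adjusted p = 0.038). SARNP siRNA 3 also gave a higher value, 2568 and 2518 (0.17 ± 0.04, limma adjusted p = 0.0022). DROSHA was lower with TMEM259 siRNA 6 (1613 and 1636 against 1824 and 1819, a log2 change of -0.16) and with SART1 siRNA 6 (3807 and 3669 against 4030 and 4050.1, a log2 change of -0.11). The DDX39A siRNA 1 call was lost without siRNA 1 replicate 1 (0.13), siRNA 1 replicate 2 (0.11), control replicate 1 (0.11) or control replicate 2 (0.13), after quantile normalization (0.09), with DESeq2 (0.12) and in a fit of the compared groups alone (0.12). The TMEM259 siRNA 6 call was lost without siRNA 6 replicate 1 (-0.15), control replicate 1 (-0.16) or control replicate 2 (-0.17), and the SART1 siRNA 6 call without siRNA 6 replicate 2 (-0.09) or control replicate 2 (-0.11). With SART1 siRNA 4 DROSHA was not called (-0.04), but it was after quantile normalization (-0.15).

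DGCR8, the partner of DROSHA, fell with both SART1 siRNAs. It stood at 1419 and 1383 with siRNA 6 and at 1511 and 1308 with siRNA 4, against 1850 and 1892 in the controls. Every knockdown library was below both controls, and the replicates of siRNA 4 were the farthest apart. On the log2 scale the changes were -0.42 ± 0.06 (limma adjusted p = 5.9e-07) and -0.41 ± 0.06 (limma adjusted p = 9.1e-07). With DDX39A siRNA 1 DGCR8 rose, at 1209 and 1258 against 1024 and 974 in the controls (0.30 ± 0.06, limma adjusted p = 6.5e-05). Smaller rises with TMEM259 siRNA 6 (0.17 ± 0.06) and SARNP siRNA 9 (0.15 ± 0.06) had limma adjusted p values of 0.031 and 0.021. The TMEM259 siRNA 6 call was lost without siRNA 6 replicate 1 (0.15), siRNA 6 replicate 2 (0.19), control replicate 1 (0.20) or control replicate 2 (0.15) and with DESeq2 (0.17). The SARNP siRNA 9 call was lost without siRNA 9 replicate 2 (0.11) or control replicate 2 (0.12) and with DESeq2 (0.15). DDX39A siRNA 4, not called at 0.13, was called without siRNA 4 replicate 2 (0.20). The gene TRMT2A and an antisense transcript overlap DGCR8 on the other strand, and their reads cannot be told apart where strand was not used.

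The 2 Microprocessor mRNAs stood at different percentages of the controls. With SART1, DGCR8 stood at 74.9% (siRNA 6) and 75.3% (siRNA 4) of the controls while DROSHA stood at 92.5% and 97.0%. With DDX39A siRNA 4, DROSHA stood at 134% while DGCR8 stood at 109%. A difference between the 2 genes was not tested.

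**Figure D3:**
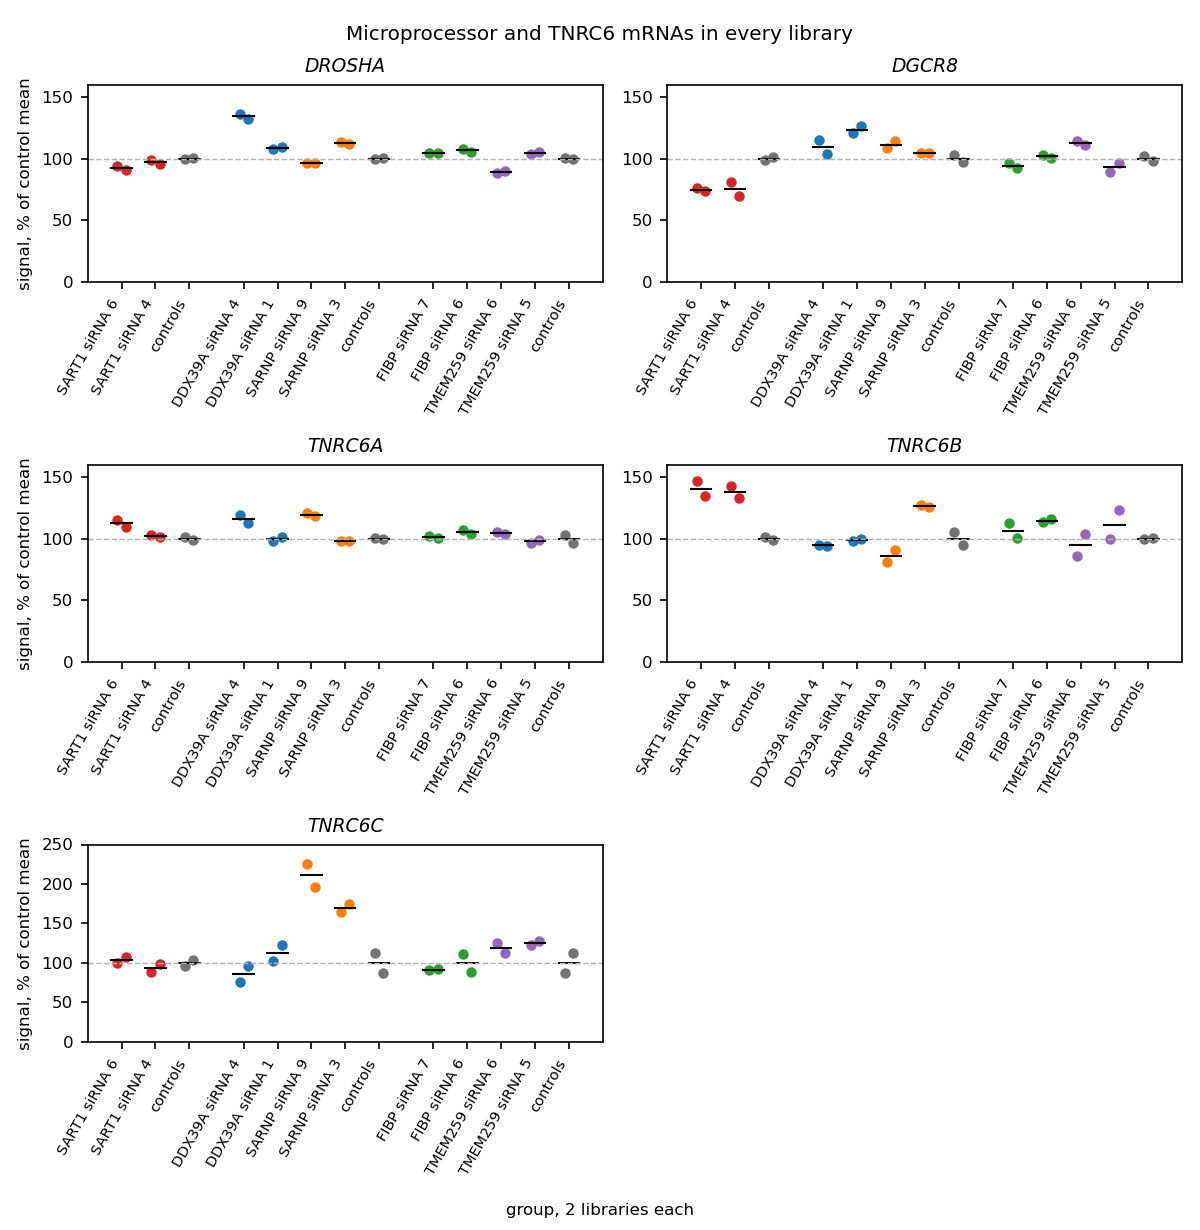
Normalized signal of the Microprocessor mRNAs DROSHA and DGCR8 and of TNRC6A, TNRC6B and TNRC6C in every library, as a percentage of the control mean of its table (dots, single libraries; bars, group means; the axis of TNRC6C is longer). DGCR8 lies near 75% with both SART1 siRNAs, DROSHA at 134% with DDX39A siRNA 4, and TNRC6C at 211% and 169% with the SARNP siRNAs.

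DICER1, the enzyme that cuts the exported hairpin, had the widest range of log2 changes of the 3 processing genes (DROSHA, DGCR8 and DICER1), and siRNAs to the same target differed. With DDX39A siRNA 4 it stood at 686 and 622, and with DDX39A siRNA 1 at 1296 and 1336, against 1167 and 1199 in the controls. DDX39A siRNA 4 lay far below the controls and siRNA 1 above them. The log2 changes were -0.86 ± 0.06 (limma adjusted p = 2.2e-15) and 0.15 ± 0.06 (limma adjusted p = 0.034). With FIBP siRNA 7 DICER1 stood at 515 and 480.1, and with FIBP siRNA 6 at 947 and 893, against 869.9 and 830.0 in the controls. FIBP siRNA 7 was again far below the controls, while siRNA 6 was slightly above them. Fitted log2 changes were -0.77 ± 0.06 (limma adjusted p = 1.5e-13) and 0.11 ± 0.06 (limma adjusted p = 0.2). DICER1 thus fell to 55.3% of the controls with DDX39A siRNA 4 and to 58.6% with FIBP siRNA 7, and in both targets the partner siRNA was not called lower. With those partners the knocked-down gene itself was at 14.0% (DDX39A siRNA 1) and 11.0% (FIBP siRNA 6) of the controls. Whether the falls depend on loss of the target was not tested.

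SARNP siRNA 9 moved DICER1 upward, to 1586 and 1514, with SARNP siRNA 3 at 1058 and 1046, against 1167 and 1199 in the controls. The 3 groups did not overlap, and the 2 siRNAs lay on opposite sides of the controls. Fitted log2 changes were 0.39 ± 0.06 (limma adjusted p = 2.7e-07) and -0.17 ± 0.06 (limma adjusted p = 0.015). With SART1 siRNA 6 DICER1 stood at 1542 and 1404, and with siRNA 4 at 1148 and 1147, against 1377 and 1247 (log2 changes of 0.17 and -0.19). With TMEM259 siRNA 6 and siRNA 5 the means were 102% and 100.5% of the controls. The calls with DDX39A siRNA 4, FIBP siRNA 7 and SARNP siRNA 9 held in every alternative run. The SARNP siRNA 3 call was lost without siRNA 3 replicate 1 (-0.18), siRNA 3 replicate 2 (-0.16) or control replicate 2 (-0.15) and with DESeq2 (-0.17). The DDX39A siRNA 1 call was lost without siRNA 1 replicate 1 (0.18), siRNA 1 replicate 2 (0.13), control replicate 1 (0.13) or control replicate 2 (0.17), after quantile normalization (0.13) and with DESeq2 (0.15). The SART1 siRNA 6 call was lost without siRNA 6 replicate 1 (0.10) or control replicate 2 (0.10), after quantile normalization (0.12) and with DESeq2 (0.17), and the SART1 siRNA 4 call without control replicate 1 (-0.12). DICER1-AS1 overlaps DICER1 on the other strand, with the same limit on telling their reads apart.

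**Figure D4:**
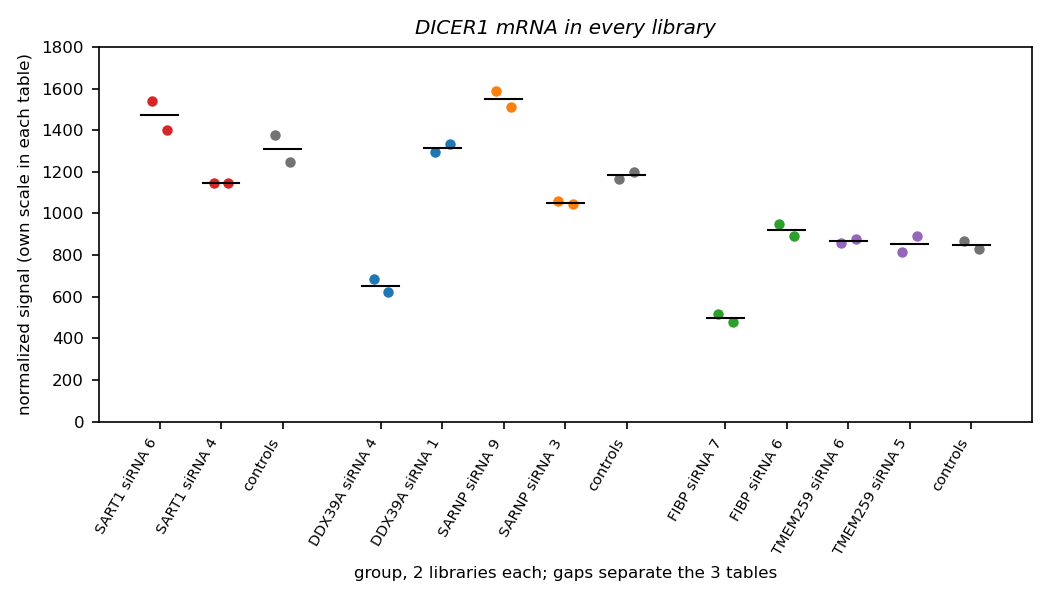
Normalized signal of DICER1 in every library (dots) with group means (bars), on the scale of each table; gaps separate the 3 tables and controls are rightmost in each. The lowest groups are DDX39A siRNA 4 (686 and 622) and FIBP siRNA 7 (515 and 480.1), each beside a partner siRNA at or above the controls.

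TNRC6A, the most abundant of the 3 TNRC6 mRNAs, was called with 3 siRNAs, each time higher. It rose with SARNP siRNA 9 (1971 and 1930.3 against 1646 and 1629, a log2 change of 0.25 ± 0.05, limma adjusted p = 3.4e-05). DDX39A siRNA 4 gave 1949 and 1844 against the same controls (0.21 ± 0.05, limma adjusted p = 0.00045). SART1 siRNA 6 gave 2733 and 2607 against 2404 and 2353 (0.17 ± 0.04, limma adjusted p = 0.0013), and this call was lost after quantile normalization (0.06). In these 3 comparisons the knockdown libraries lay above both controls. The other 7 siRNAs gave log2 changes between -0.03 and 0.08.

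TNRC6B rose with both SART1 siRNAs. It stood at 639 and 585 with siRNA 6 and at 621 and 579 with siRNA 4, against 442 and 430.0 in the controls. The 2 siRNAs overlapped each other and lay wholly above the controls. The log2 changes were 0.49 ± 0.07 (limma adjusted p = 2.3e-06) and 0.46 ± 0.07 (limma adjusted p = 6.5e-06). With SARNP the siRNAs parted: siRNA 9 gave 353 and 393 and siRNA 3 gave 551 and 544, against 456 and 412 in the controls. This gave log2 changes of -0.22 ± 0.08 (limma adjusted p = 0.015) and 0.34 ± 0.08 (limma adjusted p = 0.00057). The lower value with siRNA 9 lost its call without siRNA 9 replicate 1 (-0.14), without control replicate 1 (-0.15) and with DESeq2 (-0.22).

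TNRC6C had the fewest reads of the members and the largest change. With SARNP siRNA 9 it stood at 131.7 and 115 (195 and 116 reads) and with SARNP siRNA 3 at 96.0 and 102 (92 and 97 reads), against 65.8 and 51.3 (62 and 48 reads) in the controls. All 4 SARNP libraries lay above both controls. On the log2 scale the changes were 1.07 ± 0.18 (limma adjusted p = 2.6e-06) and 0.76 ± 0.18 (limma adjusted p = 0.00061), or 2.10-fold and 1.69-fold, and both calls held in every alternative run. With the 8 siRNAs of the other targets TNRC6C was not called. TNRC6C-AS1 and other transcripts overlap TNRC6C, so antisense reads could not be set apart.

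Differences between the 2 siRNAs of a target were tested directly, in 5 pairs, in the same model, where the control libraries enter the estimate of the spread but not the difference. SARNP siRNA 9 against siRNA 3 had 7 of 10 members called, where 64.1% of all genes were called. DDX39A siRNA 4 against siRNA 1 had 4 (all genes 50.6%), TMEM259 siRNA 6 against siRNA 5 had 4 (all genes 32.1%), SART1 siRNA 6 against siRNA 4 had 3 (all genes 38.5%) and FIBP siRNA 7 against siRNA 6 had 1 (all genes 35.7%). DICER1 differed in 4 of the 5 pairs: the log2 difference was -1.01 ± 0.06 for DDX39A (limma adjusted p = 1.6e-17), -0.89 ± 0.06 for FIBP (limma adjusted p = 1.3e-15), 0.56 ± 0.06 for SARNP (limma adjusted p = 6.2e-11) and 0.36 ± 0.06 for SART1 (limma adjusted p = 1.8e-05). For TMEM259 it was 0.03 ± 0.06 (limma adjusted p = 0.79).

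In the SARNP pair, AGO4 (-0.62), TNRC6B (-0.55), AGO1 (-0.51) and DROSHA (-0.22) were lower with siRNA 9 than with siRNA 3, and TNRC6A (0.28) and AGO2 (0.17) were higher. TNRC6C, higher with both, was not called between them (0.31 ± 0.18, limma adjusted p = 0.12), but was with edgeR (0.33), after quantile normalization (0.40) and in a fit of the compared groups alone (0.31). The AGO2 difference lost its call without siRNA 9 replicate 1 (0.16), siRNA 9 replicate 2 (0.19) or siRNA 3 replicate 2 (0.13), after quantile normalization (0.15) and with DESeq2 (0.18).

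In the DDX39A pair, DROSHA (0.31) and TNRC6A (0.22) were higher with siRNA 4 than with siRNA 1, and DGCR8 was lower (-0.18). That DGCR8 difference lost its call without siRNA 4 replicate 2 (-0.11) or siRNA 1 replicate 2 (-0.15) and with DESeq2 (-0.17). TNRC6C, not called in this pair at -0.39, was called without siRNA 4 replicate 2 (-0.55), without siRNA 1 replicate 1 (-0.52) and after quantile normalization (-0.46).

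In the TMEM259 pair, DGCR8 (0.28) and AGO2 (0.24) were higher with siRNA 6 than with siRNA 5, and AGO1 (-0.26) and DROSHA (-0.22) were lower. The AGO1 difference lost its call without siRNA 6 replicate 1 (-0.21) or siRNA 5 replicate 1 (-0.23) and with DESeq2 (-0.26), and the AGO2 difference without siRNA 6 replicate 1 (0.17) and with DESeq2 (0.24). TNRC6B, not called at -0.23, was called without siRNA 6 replicate 2 (-0.36) or siRNA 5 replicate 1 (-0.38).

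In the SART1 pair, AGO3 was lower with siRNA 6 than with siRNA 4 (-0.29) and TNRC6A higher (0.14). The AGO3 difference lost its call without siRNA 6 replicate 1 (-0.28) or siRNA 4 replicate 2 (-0.27) and with DESeq2 (-0.29), and the TNRC6A difference without siRNA 6 replicate 1 (0.11) and after quantile normalization (0.10). DROSHA, not called at -0.07, was called after quantile normalization (-0.11). AGO2, DGCR8 and TNRC6B, which changed with both SART1 siRNAs, had differences between them of 0.04 ± 0.05, -0.01 ± 0.06 and 0.03 ± 0.07.

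**Figure D5:**
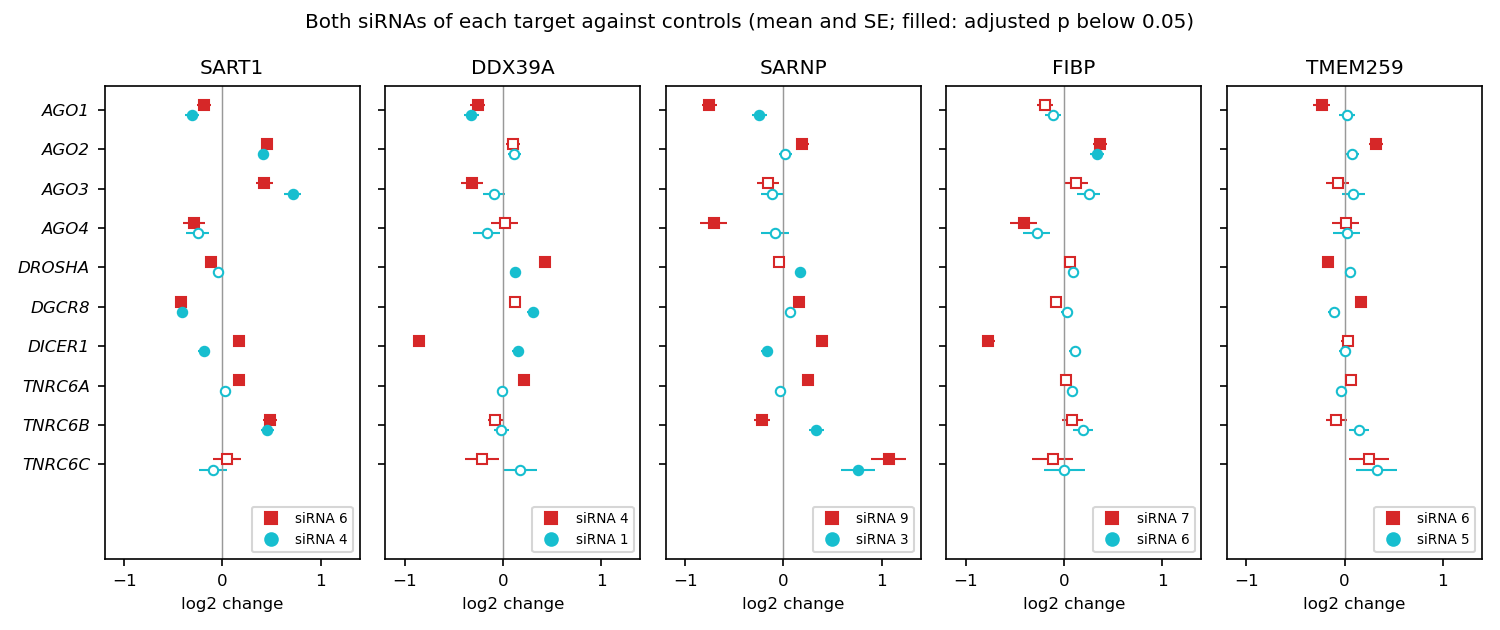
Log2 change against controls (horizontal axis, mean with SE) of each member with both siRNAs of a target, 1 panel per target; filled symbols had a limma adjusted p below 0.05. Both symbols of AGO2, DGCR8 and TNRC6B lie close together for SART1, whereas those of DICER1 are 1.01 apart for DDX39A and 0.89 apart for FIBP.

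Partners of these genes in the same pathway were counted from 5 lists written from textbook knowledge. With SART1, 9 of 19 Microprocessor partners were higher with both siRNAs and 2 lower (47.4% and 10.5%, beside 22.9% and 20.0% of all genes), with median log2 changes of 0.17 (siRNA 6) and 0.07 (siRNA 4) beside -0.0020 and -0.0085 over all genes. The RNA-binding proteins SAFB (0.42 and 0.42) and SRSF3 (0.41 and 0.35) and the Microprocessor-associated protein ERH (0.31 and 0.35) were among those that rose, in the order siRNA 6 and siRNA 4. The count depended on the scaling: after quantile normalization 5 were higher and 4 lower. Without single libraries between 7 and 9 were higher, and 1 was lower without control replicate 2, siRNA 4 replicate 2 or siRNA 6 replicate 2.

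Of 15 partners in export, dicing and Argonaute loading, 6 were higher with both SART1 siRNAs, among them RAN, the GTPase that drives hairpin export (0.50 and 0.31), and the chaperone cofactor AHSA1 (0.29 and 0.24), and none lower (40.0% of the list higher, beside 22.9% of all genes higher and 20.0% lower). After quantile normalization 6 were higher and 3 lower. Of 28 measured silencing effectors, 8 were higher with both SART1 siRNAs and 5 lower (28.6% and 17.9%), near the 22.9% and 20.0% of all genes. The deadenylase subunits moved apart, with PAN3 higher (0.72 and 0.39) and PAN2 lower (-0.99 and -0.74), and the decapping enzyme DCP2 (0.74 and 0.53) and its partner PATL1 (0.84 and 0.56) were higher. The lower count was 3 without control replicate 2, without siRNA 6 replicate 1 and with DESeq2. Of 8 measured turnover and tailing genes, 4 were higher, led by the uridylyltransferase ZCCHC6 (0.47 and 0.61), and 2 lower, ZSWIM8 among them (-0.35 and -0.31), which is part of the ubiquitin ligase of target-directed microRNA decay (50.0% and 25.0% of the list, beside 22.9% and 20.0% of all genes). The lower count there was 1 without control replicate 1, control replicate 2, siRNA 4 replicate 1 or siRNA 6 replicate 1, after quantile normalization and with DESeq2.

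With DDX39A, 3 of 15 export, dicing and loading partners were lower with both siRNAs (20.0%) and 0 higher. Of 19 Microprocessor partners, 2 were lower (10.5%) and 0 higher, beside 6.37% of all genes lower and 8.67% higher. Of 8 turnover and tailing genes, 1 was higher (12.5%) and 0 lower. The cap-binding protein NCBP2 (-0.24 with siRNA 4 and -0.41 with siRNA 1) and the Argonaute-loading chaperone HSP90AA1 (-0.53 and -0.18) were among the lower partners. HSP90AA1 lost its siRNA 1 call after quantile normalization. That run gives equally ranked genes equal values and left HSP90AA1 a log2 change of -5.3e-15, so it could not test this call. The Microprocessor count was 1 without control replicate 2 or siRNA 1 replicate 1 and 3 without siRNA 4 replicate 2 and after quantile normalization, and the export count was 2 without control replicate 1, control replicate 2, siRNA 1 replicate 1, siRNA 4 replicate 1 or siRNA 4 replicate 2, after quantile normalization and with DESeq2.

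DCP2 was higher with SARNP siRNA 9 (1632 and 1582) and siRNA 3 (1509 and 1474), against 631 and 658 in the controls, with log2 changes of 1.32 ± 0.06 (limma adjusted p = 4.6e-21) and 1.21 ± 0.06 (limma adjusted p = 2e-19). With DDX39A the siRNAs gave opposite DCP2 changes, -0.57 (siRNA 4) and 0.59 (siRNA 1). LSM14A, a P-body protein, was lower with DDX39A siRNA 4 (-0.35 ± 0.05) and far lower with siRNA 1 (-1.49 ± 0.05). Of the 28 silencing effectors, 4 were higher and 4 lower with both DDX39A siRNAs (14.3% each way, beside 8.67% and 6.37% of all genes; 2 lower without siRNA 4 replicate 2). With both SARNP siRNAs 4 were higher and 3 lower (14.3% and 10.7%, beside 7.17% and 7.15% of all genes; 1 higher without control replicate 1 and with DESeq2, 2 higher without siRNA 3 replicate 2).

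Noncoding host transcripts of microRNAs were read as well, since they are precursors rather than mature products. Of 16 measured, 2 were lower with both SART1 siRNAs (12.5%, beside 20.0% of all genes). With both SARNP siRNAs 1 was lower (6.25%, beside 7.15%), and both shares were below those of all genes. Higher with both were 0 for SART1 and 0 for SARNP, beside 22.9% and 7.17% of all genes. Median log2 changes of the list were -0.28 (SART1 siRNA 6) and -0.14 (SART1 siRNA 4), beside -0.0020 and -0.0085 over all genes. With SARNP they were -0.0070 (siRNA 9) and 0.029 (siRNA 3), beside -0.0019 and 0.0012. MIR210HG, host of the hypoxia-linked miR-210, stood at 16.3 and 33.4 with SART1 siRNA 6 and at 15.0 and 16.81 with SART1 siRNA 4, against 48.3 and 61.4 in the controls. All 4 knockdown libraries lay below both controls, on 16 to 63 reads per library. The log2 changes were -1.19 ± 0.31 (limma adjusted p = 0.0019) and -1.71 ± 0.31 (limma adjusted p = 4.9e-05), and the siRNA 6 call was lost without its replicate 1 (-0.69). With SARNP the 2 siRNAs moved MIR210HG apart, to 14.2 and 14.9 with siRNA 9 and to 73.1 and 74.6 with siRNA 3, against 23.3 and 31.0 in the controls (log2 changes of -0.85 and 1.42, limma adjusted p = 0.0052 and 2.4e-05).

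MIR193BHG was lower with both SART1 siRNAs (log2 changes of -0.997 with siRNA 6 and -0.73 with siRNA 4), a call that was lost without control replicate 1, without siRNA 4 replicate 2, after quantile normalization and with DESeq2 (-0.64, -0.56, -0.52 and -0.74 with siRNA 4). MIR17HG was lower with both SARNP siRNAs, at 89.1 and 80.3 (siRNA 9) and 61.6 and 83.0 (siRNA 3) against 119 and 119 in the controls (-0.48 and -0.72). The MIR17HG call with SARNP siRNA 9 was lost without control replicate 1 (-0.48), control replicate 2 (-0.48) or siRNA 9 replicate 2 (-0.41) and with DESeq2 (-0.48). Some of the mature strands carried by these 3 hosts are given because they are what DROSHA and DICER1 would release, with the seed in capitals.
hsa-miR-210-3p: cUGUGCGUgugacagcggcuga
hsa-miR-193b-3p: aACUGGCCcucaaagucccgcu
hsa-miR-365a-3p: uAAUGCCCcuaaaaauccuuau
hsa-miR-17-5p: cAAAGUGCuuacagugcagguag
hsa-miR-20a-5p: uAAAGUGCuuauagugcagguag
hsa-miR-18a-5p: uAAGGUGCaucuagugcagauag
hsa-miR-19a-3p: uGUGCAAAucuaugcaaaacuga
hsa-miR-19b-3p: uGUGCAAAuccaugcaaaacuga
hsa-miR-92a-3p: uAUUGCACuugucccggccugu
Among the strands shown for MIR17HG, miR-17-5p and miR-20a-5p share 1 seed and miR-19a-3p and miR-19b-3p share another.

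Likeness between genes was described over the 26 libraries, with each gene's log2 values centred on its table, so that the points share tables, controls and depth. Among the members, AGO1 and AGO4 were most alike (Pearson r = 0.716) and DROSHA and DICER1 least (r = -0.699), and AGO1 and AGO2 ran opposite (r = -0.602). Over 10015 genes, the gene most like DICER1 was PLS1 (r = 0.893), like DROSHA TPCN1 (r = 0.924), like AGO1 IQGAP3 (r = 0.879) and like AGO2 RYK (r = 0.856). TNRC6C was most like ZNF678 (r = 0.905), AGO3 most like SUGT1 (r = 0.816), AGO4 most like ACTR3C (r = 0.852), DGCR8 most like ZWINT (r = 0.832), TNRC6A most like TMEM164 (r = 0.871) and TNRC6B most like CKS2 (r = 0.802).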

How the data were processed

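Poly(A) RNA-seq values of 26 libraries (13 groups of 2) were used. Per the submitters' processing notes, the tools were STAR, HTSeq, Picard and DESeq2, and the build was hg19, without versions or roles. The annotation and strand counted are not given in the sources used here. The deposited values are normalized signal, read here as gene counts divided by 1 size factor per library, and whole reads were recovered from them on that reading. Within a tolerance of 0.0001 they came out whole for 100% of values in each library, but in 14 of the 26 libraries the worth of 1 read was close to 1 or under the lowest value, which leaves the recovery there less certain, and read numbers, edgeR and DESeq2 results rest on it. Tables were never merged. Values were tested as log2(value + 1) with limma 3.58.1 (trend), 1 model per table, over genes with a mean of at least 10 (11823, 11673 and 11768 genes in the SART1, the DDX39A and SARNP, and the FIBP and TMEM259 tables), two-sided, with Benjamini-Hochberg adjustment. The fit was tested on simulated data. edgeR 4.0.16 and DESeq2 1.42.0 on recovered reads, quantile normalization, other filters and pseudocounts, a replicate block and leaving out each library were alternatives. The labels "SARPN" and "FIPB" were read as SARNP and FIBP. Named genes were all members, up to 4 genes per list and target with the largest change called with both siRNAs, and the most alike genes; DCP2 with DDX39A and MIR210HG with SARNP were added after their values were seen. Members and lists were chosen with earlier results of these data known. Only some of the genes this rule names are reported here.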

Additional observations from a re-analysis of the deposited data

Results flagged for a closer look

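In 4 cases a member changed in opposite directions, each past the threshold, with the 2 siRNAs of 1 target, and the direct test between the siRNAs also passed it. They were 2 of 10 members with SARNP, 1 of 10 with DDX39A and 1 of 10 with SART1, beside 13.0%, 5.16% and 2.42% of all genes with opposite calls. For DICER1 the log2 difference was -1.01 between DDX39A siRNA 4 and siRNA 1 (limma adjusted p = 1.6e-17), 0.56 between SARNP siRNA 9 and siRNA 3 (limma adjusted p = 6.2e-11) and 0.36 between SART1 siRNA 6 and siRNA 4 (limma adjusted p = 1.8e-05). For TNRC6B it was -0.55 between SARNP siRNA 9 and siRNA 3 (limma adjusted p = 8.8e-08). For DICER1 with DDX39A siRNA 1 and SARNP siRNA 3, for both SART1 siRNAs, and for TNRC6B with SARNP siRNA 9, the change against controls lost its call when certain single libraries were left out. With DESeq2 the call against controls was also lost for DICER1 with DDX39A siRNA 1, SARNP siRNA 3 and SART1 siRNA 6. It was lost there for TNRC6B with SARNP siRNA 9 too, so none of the opposite calls held with DESeq2. After quantile normalization DICER1 lost the call with DDX39A siRNA 1 and SART1 siRNA 6. The 4 differences between siRNAs kept their call in every alternative run. Effects of single siRNAs beyond their target were not tested.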

How the results depend on the processing

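No called member change reversed. Some uncalled changes did change sign, such as AGO4 with DDX39A siRNA 4 (-0.11 to 0.15 over the alternatives). Of 45 called member changes against controls, 24 stayed called in every alternative and 21 lost the call in at least 1; of 55 uncalled ones, 4 gained it. Leaving out a library left 1 in its group, and fewer of all genes were then called with every siRNA. A call lost that way need not mean that the change rested on the library left out. AGO1 with TMEM259 siRNA 6, for example, lost its call without control replicate 2 at -0.29, beside -0.23 with all libraries. Other filters and a pseudocount of 5 changed no member call. Counts of members called that moved more than 1.5-fold were, with DESeq2, 2 (DDX39A siRNA 1), 5 (SARNP siRNA 9) and 2 (TMEM259 siRNA 6). With quantile normalization they were 2 (DDX39A siRNA 1) and 5 (SART1 siRNA 6). All genes called moved with DESeq2 to 2439 (DDX39A siRNA 1), 2519 (FIBP siRNA 7), 1541 (FIBP siRNA 6), 1246 (TMEM259 siRNA 6) and 1552 (TMEM259 siRNA 5).
With 1 library left out, members called ranged from 1 to 2 (DDX39A siRNA 1), 3 to 5 (SARNP siRNA 3), 1 to 2 (FIBP siRNA 6) and 0 to 2 (TMEM259 siRNA 6), and all genes called from 1669 to 2168 (FIBP siRNA 6), 1080 to 1716 (TMEM259 siRNA 6) and 1514 to 1876 (TMEM259 siRNA 5).

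No pairing of libraries by replicate number was seen: deviations of same-numbered libraries correlated between -0.0602 and 0.0546. Where replicates differ mainly by counting noise, such a check could not show pairing. With the replicate block the members called were 7 for SART1 siRNA 4, where AGO4 gained the call, and as before for the other 9 siRNAs. Counting depth limits TNRC6C most, at 31 to 195 reads per library. With 2 libraries a group, small changes are the least secure.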
